A study of Mus musculus with 12 samples.

Results

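The C-type lectin genes named Clec were followed in Siglec-F sorted alveolar macrophages of mice with an intact liver and of mice after removal of 70% of the liver. Members were the genes whose symbol in the array's probe annotation is Clec followed by a number, letters and an optional number. There were 32 such genes among 19505 genes with a single symbol, each measured by 1 probe set of the 22206 tested. The choice used names and no measured value. The symbol covers more than lectin receptors: Clec3a, Clec3b, Clec11a and Clec18a encode secreted proteins, and Clec16a encodes an intracellular regulator of autophagy and mitophagy. Clec7a, the gene of Dectin-1, has no entry in the annotation and was not analysed here.

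C-type lectin receptors of myeloid cells bind sugars or lipids of fungi and bacteria, or structures released from dying cells, through a C-type lectin-like domain. Activating members reach the kinase Syk through an adaptor with an immunoreceptor tyrosine motif, FcR gamma or DAP12, or through a single tyrosine motif of their own, and Syk leads over Card9, Bcl10 and Malt1 to NF-kB. Inhibitory members carry a motif that recruits phosphatases such as SHP-1 and damp the same signals. In the lung, alveolar macrophages use such receptors to take up inhaled microbes, while other family members belong to platelets, dendritic cells, vessel walls or the ligands read by natural killer cells.

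The cells came from male C57 Black mice and were taken from the lung with magnetic beads carrying an antibody to Siglec-F, which eosinophils share with alveolar macrophages. The 4 groups were mice with intact liver and mice at 1, 3 and 7 days after the 70% resection, with 3 biological replicates each, on 12 Clariom S arrays. The labels name no sham-operated group, and they do not say whether a replicate was a single mouse or a pool, so p-values measure the spread between these samples. The labels also carry a protocol line on macrophages co-cultured with other cells, whose bearing on these samples is unclear.

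Values are log2 RMA signals. As a measure of background, the level below which 95% of the intron control probe sets lie was 5.01 to 5.69 on the 12 arrays, with a median of 5.28. A gene was called above background where its highest group mean exceeded 5.28. The alveolar macrophage list, with markers such as Siglecf and Marco, had 12 of 14 genes measured, all 12 above background, and its mean signal was 9.21 to 9.45 on intact arrays and 8.71 to 9.55 on the 9 arrays after resection. Exon and intron controls separated weakly, with an area under the curve of 0.809 to 0.837, on 3 arrays: replicate 2 of day 1, replicate 1 of day 3 and replicate 2 of day 7. Day 1 replicate 2 was the lowest day 1 array for all 10 Clec genes above background and for 74.5% of the 5232 genes above background. The bioB control read 7.63, 7.53 and 7.72 on intact arrays and 8.65, 10.29 and 8.62 on day 1 arrays. It read 7.83, 7.81 and 7.44 on day 3 arrays and 8.19, 8.55 and 8.36 on day 7 arrays. All its day 1 and day 7 values lay above the intact ones. The dap control read 6.88 on day 3 replicate 1, and 7.77 and 6.47 on day 7 replicates 2 and 3. It was at most 2.89 on the other arrays. The part of such array differences in the group differences was not tested. On these bulk arrays fewer cells of a type and less RNA per cell cannot be told apart. Because probes differ, the signal of a gene says nothing of its level relative to another gene.

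Of the 32 Clec genes, 10 were above background: Clec4n, Clec4e, Clec4d and Clec5a of the activating receptors, Clec4a1, Clec4a3 and Clec12a of the DCIR and inhibitory receptors, and Clec2d, Clec1a and Clec16a. None of the 32 passed an adjusted p of 0.05 in limma in any of the 6 comparisons between groups or in the F test over the 4 groups, where the smallest adjusted p was 0.324. Over all probe sets the share called was 0% at day 1, 0.0045% at day 3 and 0.018% at day 7 against intact, and 0% in each comparison between days. The share called by the F test was 0.00901%. At an unadjusted p under 0.05, 6 members differed from intact at day 1, with 0 higher and 6 lower (8.94% of all probe sets had such a p, 3.04% higher and 5.9% lower). At day 3 there were 3, of which 1 was higher and 2 lower (4.46% of all, 1.96% higher and 2.5% lower). At day 7 there were 2, of which 1 was higher and 1 lower (5.7% of all, 1.95% higher and 3.74% lower). By the F test 5 members had such a p (7.34% of all). The count for day 1 against intact without day 1 replicate 2 is not given here.

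Between days, 3 members had an unadjusted p under 0.05 for day 3 against day 1, 2 higher and 1 lower (9.6% of all probe sets, 6.32% higher and 3.28% lower). For day 7 against day 3 there were 3, with 2 higher and 1 lower (5.12% of all, 2.03% higher and 3.1% lower). For day 7 against day 1 there were 8, with 6 higher and 2 lower (6.74% of all, 3.81% higher and 2.93% lower). Without day 1 replicate 2 the last count was 4. The 6.74% is for all arrays, and the share of all probe sets without that array is not given here. For groups without overlap, 4 members were lower at day 1 than on every intact array (8.94% of all) and 0 higher (7.42% of all). At day 3, 5 were lower (6.68% of all) and 1 higher (7.19% of all), and at day 7, 6 were lower (8.15% of all) and 2 higher (6.11% of all). Without regard to direction the shares of all probe sets were 16.4% at day 1, 13.9% at day 3 and 14.3% at day 7. Between days, 2 members were higher and 1 lower without overlap for day 3 against day 1 (13.3% of all, 7.03% higher and 6.24% lower), 4 higher and 2 lower for day 7 against day 3 (10.5% of all, 4.84% higher and 5.69% lower), and 5 higher and 2 lower for day 7 against day 1 (9.21% of all, 4.55% higher and 4.66% lower). The median difference of the 32 members from intact was -0.05 at day 1, -0.10 at day 3 and -0.03 at day 7, against -0.017, 0.00071 and -0.015 over the 19505 genes. The 3 comparisons share the intact arrays.

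**Figure D1:**
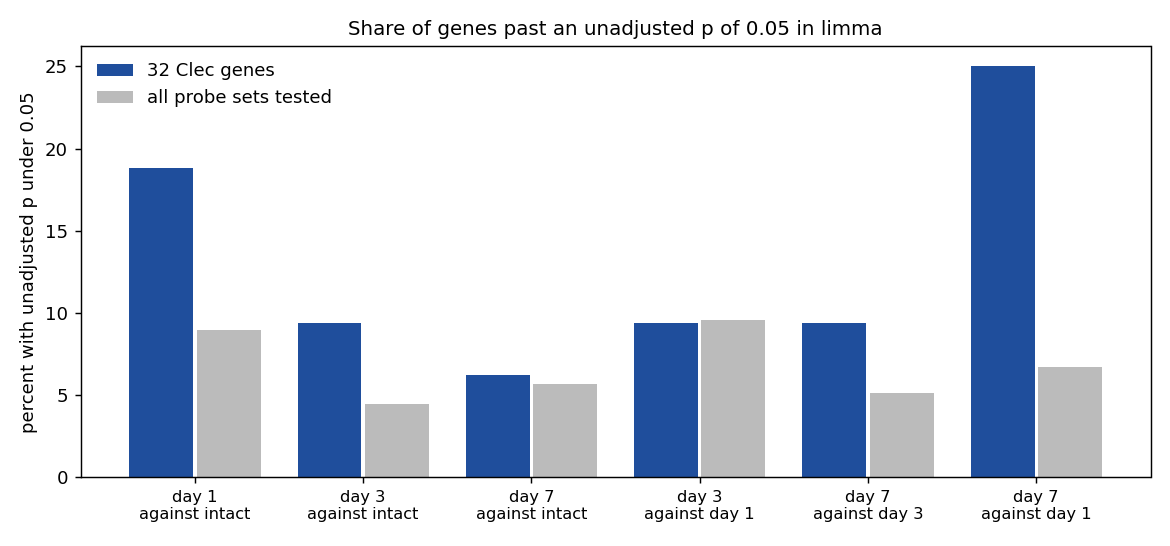
Percent of the 32 Clec genes (blue) and of all 22206 probe sets tested (grey) with an unadjusted p under 0.05 in limma, for the 6 comparisons between groups. The Clec share is 25% for day 7 against day 1 (6.74% of all) and 18.8% for day 1 against intact (8.94% of all). It is 6.25% to 9.38% in the other 4 comparisons (4.46% to 9.6% of all). Without day 1 replicate 2 only 4 of the 32 genes had such a p for day 7 against day 1.

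Among the activating receptors, the Dectin-2 gene Clec4n, whose product binds mannan-rich fungal sugars, was well above background on all 12 arrays. Intact arrays read 10.22, 10.23 and 9.93 (mean 10.13 ± 0.17, SD, n = 3), day 1 arrays 10.22, 9.75 and 9.78, day 3 arrays 10.09, 9.83 and 10.10, and day 7 arrays 9.98, 9.96 and 10.27. All groups overlapped. The 95% interval of the difference from intact was -0.60 to 0.19 at day 1, -0.52 to 0.27 at day 3 and -0.45 to 0.34 at day 7.

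Clec4e encodes Mincle, a receptor for mycobacterial cord factor and for a ribonucleoprotein of dead cells. Its intact arrays read 9.89, 9.57 and 9.69 (mean 9.72 ± 0.16, SD, n = 3), day 1 arrays 9.96, 9.09 and 10.44, day 3 arrays 10.41, 9.45 and 10.01, and day 7 arrays 10.06, 10.31 and 9.99. Day 7 lay above every intact array, with a difference of 0.40 and a 95% interval of -0.28 to 1.08 (adjusted p = 1.000), while days 1 and 3 overlapped with intact. Clec4d, the gene of the lectin MCL that pairs with Mincle, read 9.38, 9.23 and 8.95 on intact arrays (mean 9.19 ± 0.22, SD, n = 3), 9.03, 8.83 and 9.45 at day 1, 9.16, 9.51 and 9.73 at day 3 and 9.37, 9.60 and 8.98 at day 7. Its groups overlapped, and the intervals of its differences from intact ran from -0.58 at day 1 to 0.78 at day 3.

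Neutrophils and monocytes also transcribe Clec4e and Clec4d. The neutrophil markers, 14 of 15 measured and 13 of them above background, had a mean signal of 7.05 to 7.33 on intact arrays, 7.35 to 8.33 at day 1, 7.49 to 8.34 at day 3 and 7.88 to 8.40 at day 7. Monocyte and interstitial macrophage markers, 13 of 14 measured and 9 above background, had 6.48 to 7.08, 5.995 to 6.90, 6.37 to 6.93 and 6.24 to 6.83. The neutrophil ranges after resection do not overlap with the intact range, whereas those of the monocyte list do. The part of these cells in the Clec4e and Clec4d values was not tested.

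Clec5a encodes MDL-1, which signals through the adaptor DAP12. Intact arrays read 6.40, 6.30 and 6.0 (mean 6.24 ± 0.21, SD, n = 3), day 1 arrays 6.55, 4.81 and 6.91, day 3 arrays 6.29, 6.45 and 6.83, and day 7 arrays 7.03, 6.98 and 6.98 (mean 6.99 ± 0.03, SD, n = 3). Day 7 was above every intact and every day 3 array and closely grouped, and the spread at day 1 came from replicate 2. The difference of day 7 from intact was 0.76 ± 0.41 (log2, SE, n = 3 per group; adjusted p = 0.940), with a 95% interval of -0.12 to 1.64. That of day 7 from day 1 was 0.91 ± 0.41 (adjusted p = 0.738), and 0.27 without day 1 replicate 2.

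The other activating receptors were not above background. Clec1b, the platelet receptor CLEC-2 for podoplanin, lay under the 95% intron limit on all 12 arrays. It read 4.77, 4.05 and 4.53 on intact arrays, 3.46, 2.50 and 3.59 at day 1, 3.79, 3.43 and 3.59 at day 3 and 4.52, 4.78 and 3.94 at day 7. Every day 1 and day 3 array was below every intact array, and every day 7 array was above every day 1 and day 3 array. The difference from intact was -1.27 ± 0.30 at day 1 (adjusted p = 0.270) and -0.85 ± 0.30 at day 3 (adjusted p = 1.000), and that of day 7 from day 1 was 1.23 ± 0.30 (adjusted p = 0.608), which was 0.89 without day 1 replicate 2. Day 7 stood 0.81 ± 0.30 above day 3 (adjusted p = 0.934).

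Of the platelet and megakaryocyte markers, 7 of 9 were measured and only Ppbp was above background. Their mean signal was 4.04 to 4.78 on intact arrays, 3.27 to 4.09 at day 1, 3.55 to 3.93 at day 3 and 3.64 to 3.98 at day 7. At day 7 this list lay below its intact range, whereas Clec1b overlapped with its own. The part of platelets in the Clec1b values was not tested.

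Clec9a encodes DNGR-1, with which cross-presenting dendritic cells bind the actin of dead cells, and was under the intron limit on all 12 arrays. It read 3.56, 2.50 and 3.23 on intact arrays, 2.36, 2.20 and 2.51 at day 1, 2.64, 3.00 and 3.03 at day 3 and 3.15, 2.90 and 2.88 at day 7. Day 1 was the lowest group and overlapped with intact through day 1 replicate 3, and the difference was -0.74 ± 0.24 (adjusted p = 0.403). Dendritic cell markers, all 14 measured and 6 above background, with Flt3, Zbtb46 and Xcr1 among the 8 below it, had a mean signal of 4.78 to 5.01 on intact arrays, 4.06 to 4.65 at day 1, 4.32 to 4.66 at day 3 and 4.53 to 5.03 at day 7. Their part in the Clec9a values was not tested. Clec4b1, the gene of the activating receptor DCAR, ranged from 4.13 to 5.34 over the 12 arrays with overlapping groups.

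**Figure D2:**
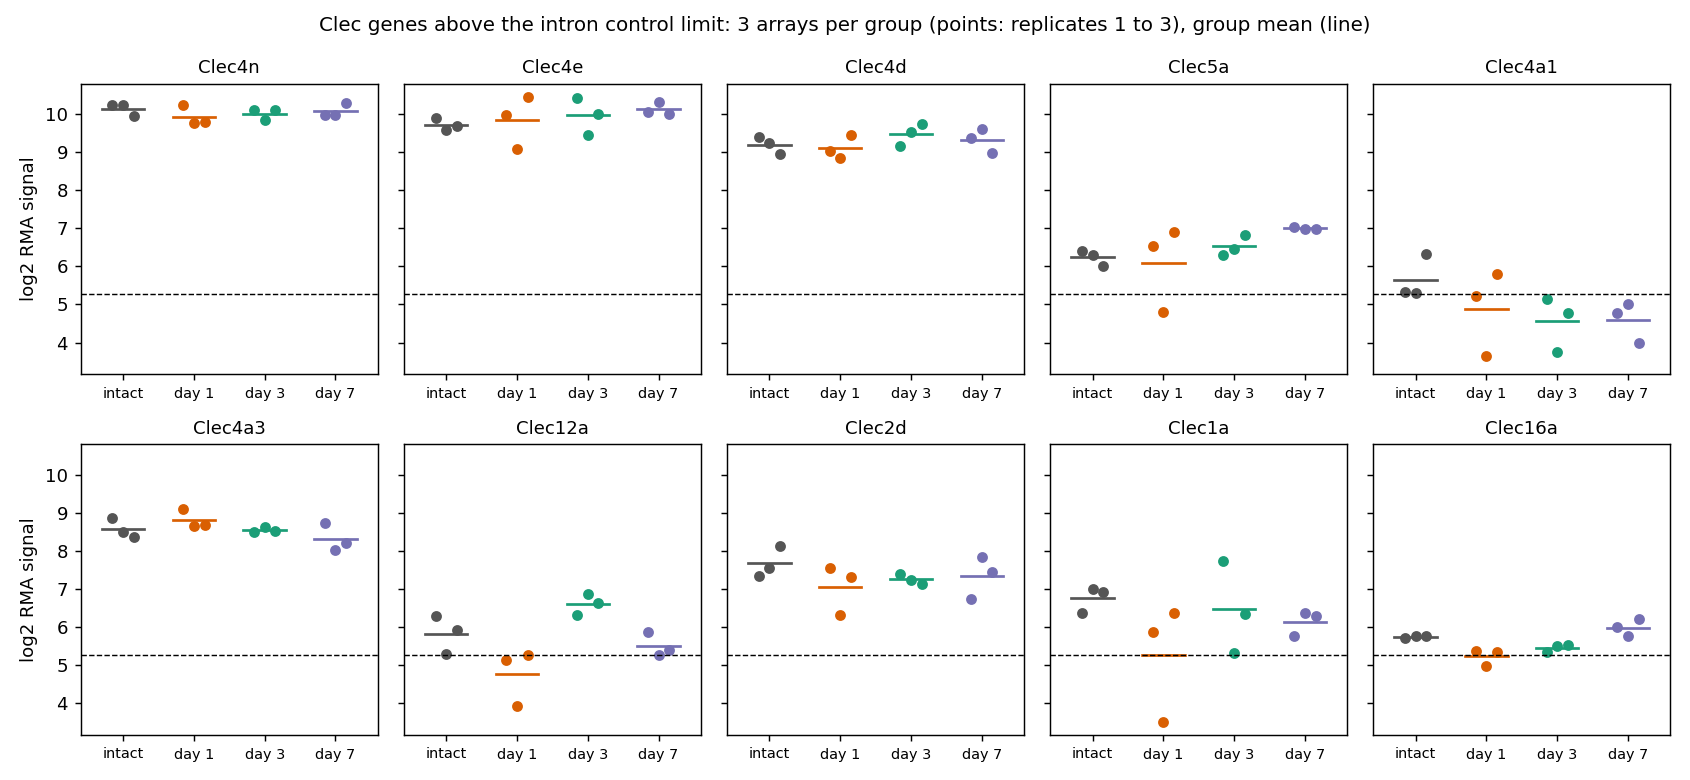
Log2 RMA signal (y axis) of the 10 Clec genes above background on the 3 arrays of each group (points, replicates 1 to 3 from left to right), with the group mean as a line and the median intron control limit of 5.28 as a dashed line. Clec4n, Clec4e, Clec4d and Clec4a3 lie far above the dashed line on all 12 arrays, Clec12a is low at day 1 and high at day 3, and day 1 replicate 2 is the lowest day 1 point in every panel.

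The inhibitory receptor gene Clec12a had the widest difference between groups relative to its error. It encodes MICL, a receptor of granulocytes, monocytes and macrophages that binds uric acid crystals and damps inflammation. Intact arrays read 6.28, 5.30 and 5.91 (mean 5.83 ± 0.50, SD, n = 3), day 1 arrays 5.13, 3.92 and 5.28 (mean 4.78 ± 0.74), day 3 arrays 6.31, 6.86 and 6.62 (mean 6.60 ± 0.27) and day 7 arrays 5.87, 5.27 and 5.39 (mean 5.51 ± 0.32). Every day 3 array was above every array of the other 3 groups, and every day 1 array was below every intact array, by a narrow margin. Day 7 overlapped with intact.

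The mean of Clec12a at day 3 was 1.82 ± 0.35 (log2, SE, n = 3 per group) above that at day 1, a 3.53-fold difference, with an adjusted p of 0.271 in limma. It differed from intact by -1.05 ± 0.35 at day 1 (adjusted p = 0.406) and 0.77 ± 0.35 at day 3 (adjusted p = 1.000), and day 7 stood -1.09 ± 0.35 from day 3 (adjusted p = 0.819). Without day 1 replicate 2 the difference of day 1 from intact was -0.63 and that of day 3 from day 1 was 1.39 (adjusted p = 0.332). Over all settings tried, the difference of day 3 from day 1 kept its sign, and its smallest adjusted p was 0.0890, without the 3 weakly separating arrays. The neutrophil markers, whose cells carry Clec12a, were above their intact range on all 3 days, and their part in the Clec12a values was not tested.

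Clec12a lies on chromosome 6 in a run of 6 adjacent protein-coding genes, Clec2m, Clec12a, Clec12b, Clec1b, Clec9a and Clec1a, in the RefSeq annotation of GRCm38.p6. Clec12a, Clec1b, Clec9a and Clec1a of this run had an unadjusted p under 0.05 at day 1, each lower (5.9% of all probe sets), while Clec2m stood at 0.45 and Clec12b at 0.07 from intact. Without day 1 replicate 2 the day 1 differences of Clec12a and Clec1a were -0.63 and -0.64. At day 3 Clec12a was above and Clec1b below every intact array. The promoters of Clec12a and Clec1b, from 250 bases before to 50 bases after the start (RefSeq, GRCm38.p6), are shown because these near neighbours had different courses. Capitals mark GAGGAA or its reverse complement TTCCTC, a core bound by ETS factors such as PU.1, the master regulator of macrophages.
Clec12a (chr6:129349994-129350293, plus strand): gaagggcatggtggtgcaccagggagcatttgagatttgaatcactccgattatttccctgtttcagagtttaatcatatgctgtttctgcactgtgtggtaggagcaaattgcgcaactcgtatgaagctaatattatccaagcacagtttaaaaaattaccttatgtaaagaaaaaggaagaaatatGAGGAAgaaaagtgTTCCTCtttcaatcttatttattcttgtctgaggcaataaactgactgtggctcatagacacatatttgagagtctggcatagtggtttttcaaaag
Clec1b (chr6:129397047-129397346, plus strand): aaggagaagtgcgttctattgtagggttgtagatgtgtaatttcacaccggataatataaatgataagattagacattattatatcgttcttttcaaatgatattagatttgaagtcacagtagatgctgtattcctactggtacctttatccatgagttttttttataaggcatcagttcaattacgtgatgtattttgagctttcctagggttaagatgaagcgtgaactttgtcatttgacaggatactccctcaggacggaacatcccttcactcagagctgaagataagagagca
The Clec12a window holds this core on both strands, at 2 places, and the Clec1b window does not hold it. Clec12a also has the AP-1 letters TGANTCA, and Clec1b has GATAAG at 2 places, the core of GATA factors, which are known from megakaryocytes. These are matches of letters in a 300 base window, not measured sites.

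The DCIR genes had separate courses. Clec4a3, the gene of DCIR3, was above background on all 12 arrays, at 8.87, 8.49 and 8.37 on intact arrays (mean 8.57 ± 0.26, SD, n = 3), 9.09, 8.64 and 8.69 at day 1, 8.50, 8.62 and 8.52 at day 3 and 8.74, 8.01 and 8.21 at day 7. Each day overlapped with intact. Day 7 differed from day 1 by -0.49 ± 0.22 (adjusted p = 0.738).

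Clec4a1, the gene of DCIR4, read 5.32, 5.30 and 6.32 on intact arrays (mean 5.65 ± 0.58, SD, n = 3), 5.23, 3.65 and 5.80 at day 1, 5.15, 3.77 and 4.78 at day 3 and 4.77, 5.0 and 3.98 at day 7. Each array of day 3 and day 7 was below each intact array, and under the intron limit. The difference was -1.08 ± 0.52 at day 3 (adjusted p = 1.000) and -1.06 ± 0.52 at day 7 (adjusted p = 0.896). The mean signal of the monocyte and interstitial macrophage markers, whose cells also carry Clec4a1, overlapped with intact at each day, in the ranges given for Clec4e. Single markers moved apart, with Ly6c2 at -1.9 ± 0.44 and Apoe at 2.01 ± 0.66 from intact at day 3. Of the 13 measured, 7 were lower and 6 higher at day 3, and likewise at day 7. The part of these cells in the Clec4a1 values was not tested. Clec4a2, the gene of DCIR1 with an inhibitory motif, varied within groups as much as between them, from 3.39 to 5.74 over the 12 arrays. Clec4a4, a DCIR of dendritic cells, stayed between 2.08 and 2.50 and the inhibitory receptor gene Clec12b between 2.25 and 4.27. Clec4b2, a relative of the DCAR gene Clec4b1 that was only listed with the DCIR group, stayed between 2.56 and 3.36. Clec4a4, Clec12b and Clec4b2 were under the intron limit on every array. Clec4b2 differed by 0.39 ± 0.18 between day 7 and day 1 (adjusted p = 0.738). The DCIR genes are close relatives, and how far their probes tell them apart was not tested.

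The genes Clec4a1, Clec4a3, Clec4a4, Clec4b1, Clec4a2, Clec4b2, Clec4n, Clec4d and Clec4e form a run of 9 adjacent protein-coding genes on chromosome 6, and 24 of the 32 members lie on this chromosome. Within the run, Clec4a3, Clec4n, Clec4d and Clec4e were above the intron limit on all 12 arrays, while Clec4a4 and Clec4b2 were under it on all 12. The promoters of the partners Clec4d and Clec4e are shown because these 2 genes are read on opposite strands at the end of the run and both kept a signal far above background in each group. Capitals again mark GAGGAA or TTCCTC.
Clec4d (chr6:123261857-123262156, plus strand): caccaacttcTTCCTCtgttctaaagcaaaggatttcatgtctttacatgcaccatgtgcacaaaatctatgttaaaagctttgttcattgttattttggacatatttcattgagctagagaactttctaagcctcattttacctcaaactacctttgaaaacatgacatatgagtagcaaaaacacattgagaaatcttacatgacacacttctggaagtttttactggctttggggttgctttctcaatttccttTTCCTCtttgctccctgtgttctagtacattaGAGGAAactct
Clec4e (chr6:123289822-123290121, minus strand): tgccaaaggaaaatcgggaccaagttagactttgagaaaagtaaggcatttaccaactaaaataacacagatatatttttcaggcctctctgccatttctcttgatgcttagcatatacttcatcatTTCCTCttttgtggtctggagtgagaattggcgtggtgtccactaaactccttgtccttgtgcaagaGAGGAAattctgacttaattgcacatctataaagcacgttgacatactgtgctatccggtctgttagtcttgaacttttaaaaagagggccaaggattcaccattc
The Clec4d window holds the core at 3 places and the Clec4e window at 2. The promoter set used here held a window for 25 of the 32 members and none for Clec10a, Clec1a, Clec2f, Clec3a, Clec3b, Clec4a4 and Clec4n. Of the 25, counting the first start listed for a gene, 13 held GAGGAA on either strand, against 28.1% of 32544 windows of the same length. The AP-1 letters TGANTCA were in 6 of 25 (7.79% of all windows) and TATAAA in 7 of 25 (13.6% of all). GATAAG was in 4 of 25 (7.32% of all). NF-kB letters, a run of 3 G and a pair of C with 5 bases of any kind between them, were in 5 of 25 (51% of all), and CACGTG was in 0 of 25 (7.17% of all). The interferon response letters, GAAA repeated with a gap of 2 bases, were in 3 of 25 (3.45% of all). All were searched on both strands.

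**Figure D3:**
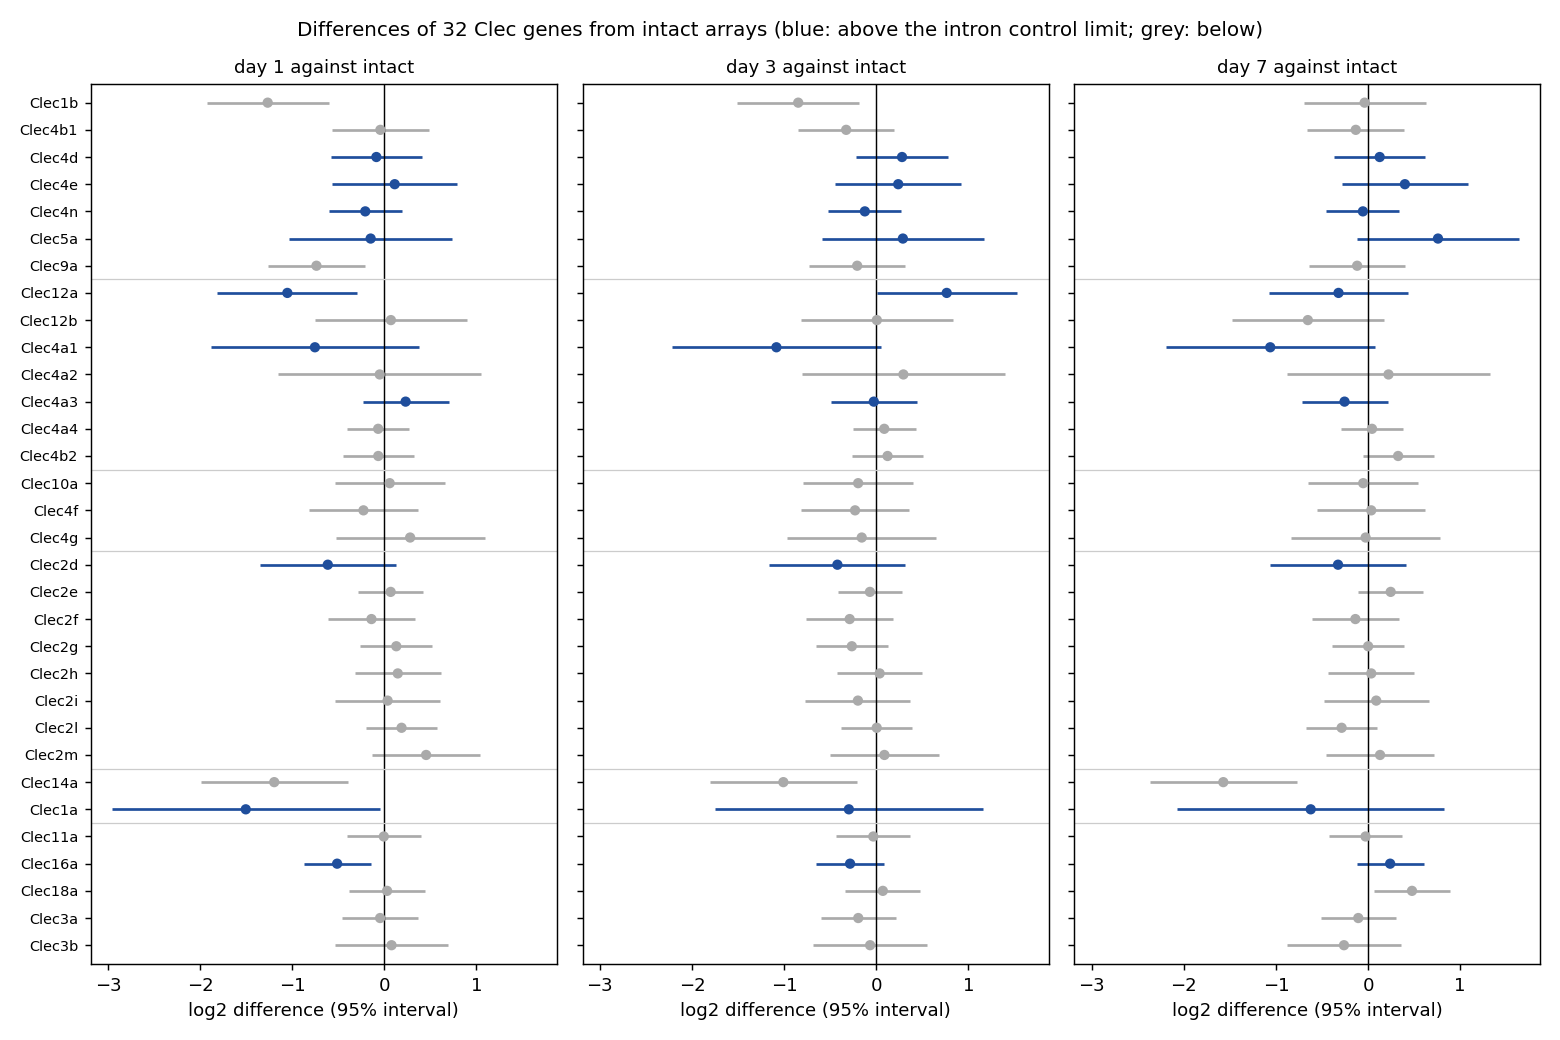
Log2 difference from intact (x axis) with its 95% interval for the 32 Clec genes at day 1, day 3 and day 7, with genes in the order of their roles (grey lines divide activating, DCIR and inhibitory, endocytic, Clec2, vessel wall, and secreted or other). Clec4b2, a relative of the DCAR gene Clec4b1, stands in the DCIR division. Blue genes were above background and grey ones were not. Clec12a lies at -1.05, 0.77 and -0.32 on the 3 days and Clec14a at -1.20, -1.01 and -1.57.

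The endocytic receptors gave little signal. Clec10a, the galactose-binding receptor MGL1 of macrophages and dendritic cells, read 4.59 to 5.62 over the 12 arrays and passed the array's own intron limit on 4 of them. Its group means were 5.09 in intact samples, 5.15 at day 1, 4.90 at day 3 and 5.04 at day 7, and the groups overlapped. Clec4f, known from Kupffer cells of the liver, stayed between 2.19 and 3.36, and Clec4g, the lectin LSECtin of liver sinusoids, between 2.29 and 4.16 with its highest value on day 1 replicate 2. Both were under the intron limit on every array, before and after resection.

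Of the Clec2 genes, ligands of receptors on natural killer cells, only Clec2d was above background. Its product Clr-b engages the inhibitory receptor NKR-P1B. Intact arrays read 7.33, 7.56 and 8.12 (mean 7.67 ± 0.40, SD, n = 3), day 1 arrays 7.55, 6.31 and 7.31, day 3 arrays 7.39, 7.24 and 7.12 and day 7 arrays 6.74, 7.84 and 7.46. Each day overlapped with intact, and the 95% interval of the difference was -1.35 to 0.13 at day 1, -1.16 to 0.32 at day 3 and -1.06 to 0.41 at day 7. All 7 other Clec2 genes were under the intron limit on all 12 arrays. Clec2g, the closest of them to the limit, ranged from 4.18 to 4.94 and differed by -0.39 ± 0.18 between day 3 and day 1 (adjusted p = 0.515). Clec2l differed by -0.47 ± 0.18 between day 7 and day 1 (adjusted p = 0.738), from a mean of 3.81 to 3.34. Clec2e, Clec2f, Clec2h, Clec2i and Clec2m had group means between 1.94 and 3.06.

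Clec14a and Clec1a are genes of the vessel wall. Clec14a, which encodes an endothelial surface protein of sprouting vessels, read 4.50, 5.15 and 5.34 on intact arrays (mean 4.999 ± 0.44, SD, n = 3), 4.07, 3.29 and 4.05 at day 1, 4.71, 3.50 and 3.76 at day 3 and 3.00, 4.03 and 3.25 at day 7. Only 2 arrays, intact replicates 2 and 3, passed the array's intron limit. Every array of day 1 and day 7 was below every intact array, and day 3 overlapped through replicate 1. The difference from intact was -1.20 ± 0.37 at day 1 (adjusted p = 0.375), -1.01 ± 0.37 at day 3 (adjusted p = 1.000) and -1.57 ± 0.37 at day 7 (adjusted p = 0.314).

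Clec14a was the only member that passed under any alternative for a single day. Without the 3 weakly separating arrays it fell by 1.37 at day 3 (adjusted p = 0.0166) and fell by 1.87 at day 7 (adjusted p = 0.00390). With array weights it fell by 1.28 at day 3 (adjusted p = 0.0201) and fell by 1.73 at day 7 (adjusted p = 0.00620). In these settings 1.13% to 1.81% of all probe sets passed on the same days. Endothelial markers, 13 of 14 measured and 8 above background, had a mean signal of 5.67 to 6.45 on intact arrays, 3.86 to 5.59 at day 1, 4.63 to 5.86 at day 3 and 4.50 to 5.51 at day 7. Clec14a and this list had the same highest array in intact samples (replicate 3), at day 3 (replicate 1) and at day 7 (replicate 2). At day 1 replicate 3 was highest for the list and replicate 1 for Clec14a, by 4.07 against 4.05 on replicate 3. The lowest array was the same for both in intact samples and at days 1 and 3, but not at day 7. The part of endothelial cells in the Clec14a values was not tested.

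The promoter of Clec14a (RefSeq, GRCm38.p6) is shown because this gene had the largest difference at day 7. It holds the ETS core, which endothelial ETS factors also bind, at 1 place, in capitals.
Clec14a (chr12:58269209-58269508, minus strand): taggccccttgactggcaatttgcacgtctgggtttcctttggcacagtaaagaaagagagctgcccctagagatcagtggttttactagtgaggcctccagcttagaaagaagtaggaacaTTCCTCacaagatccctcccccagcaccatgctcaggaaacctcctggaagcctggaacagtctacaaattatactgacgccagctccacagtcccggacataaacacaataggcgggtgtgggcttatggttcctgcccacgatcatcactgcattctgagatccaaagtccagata
Neither the AP-1 letters TGANTCA nor the letters GATAAG were found in this window.

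Clec1a, an endothelial and myeloid receptor for melanin of Aspergillus spores, read 6.37, 7.00 and 6.91 on intact arrays (mean 6.76 ± 0.34, SD, n = 3), 5.87, 3.52 and 6.38 at day 1, 7.73, 5.33 and 6.33 at day 3 and 5.77, 6.37 and 6.28 at day 7. Each day 7 array was below each intact array, by a narrow margin, while days 1 and 3 were widely spread and overlapped with intact. The difference at day 1 was -1.50 ± 0.67 (adjusted p = 0.549) and rested on 1 array: without day 1 replicate 2 it was -0.64.

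**Figure D4:**
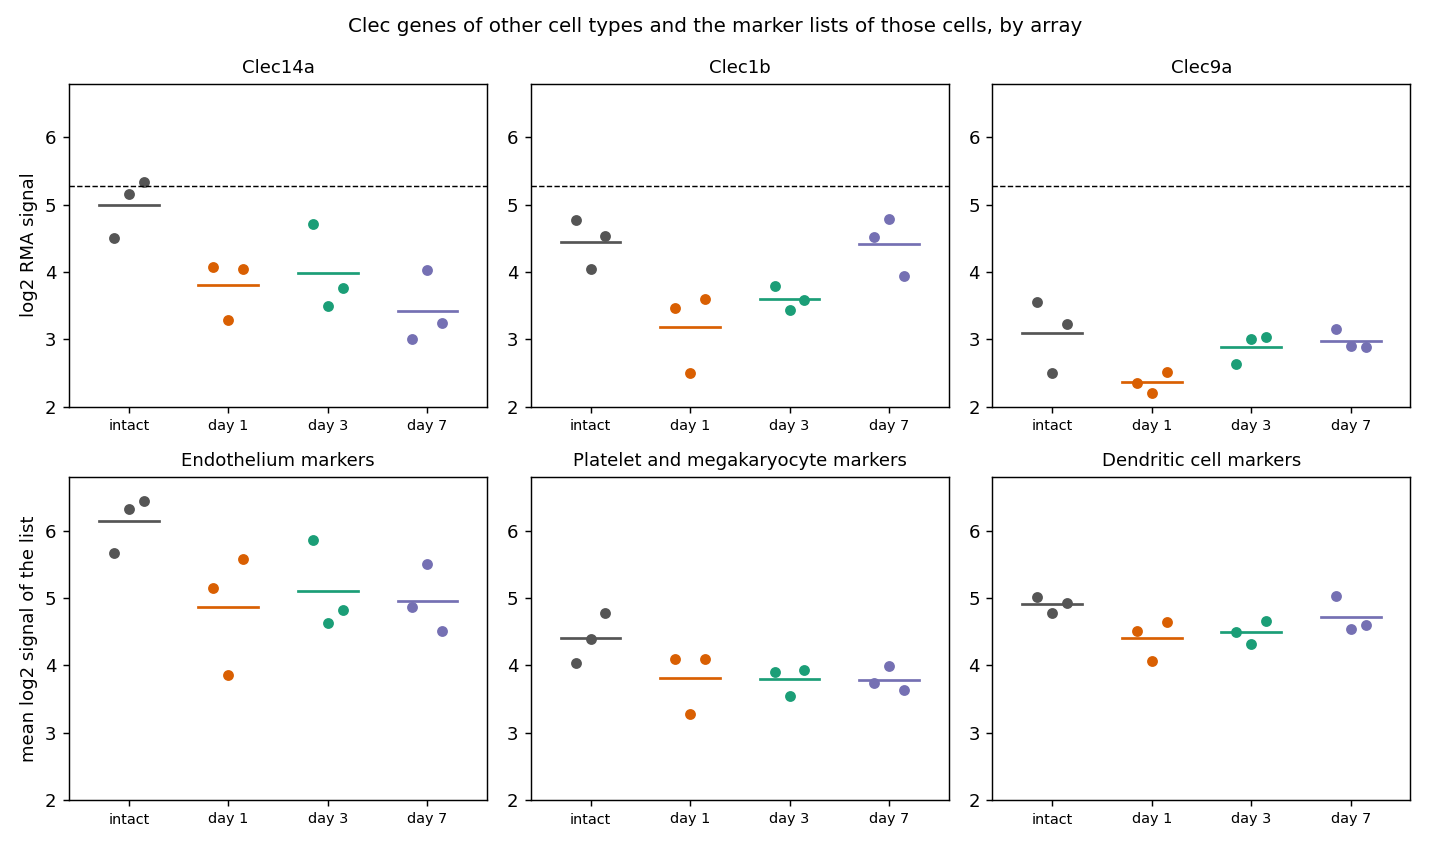
Upper row: log2 RMA signal of Clec14a, Clec1b and Clec9a on the 3 arrays of each group, with group means as lines and the intron control limit of 5.28 dashed. Lower row: mean log2 signal of the endothelial, platelet and dendritic cell marker lists on the same arrays. The group means of Clec14a and of the endothelial list are highest in intact samples, and Clec1b has a mean of 4.41 at day 7 and 4.45 in intact samples while the platelet list is at 3.64 to 3.98 at day 7.

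Clec16a, the intracellular regulator of autophagy, had small within-group spread. Intact arrays read 5.71, 5.75 and 5.77 (mean 5.74 ± 0.03, SD, n = 3), day 1 arrays 5.37, 4.98 and 5.35, day 3 arrays 5.36, 5.50 and 5.53 and day 7 arrays 5.996, 5.76 and 6.20. All arrays of days 1 and 3 were below all intact arrays, and all arrays of day 7 were above those of days 1 and 3 while overlapping with intact. The difference from intact was -0.51 ± 0.17 at day 1 (adjusted p = 0.403). Day 7 stood 0.75 ± 0.17 above day 1 (adjusted p = 0.580) and 0.52 ± 0.17 above day 3 (adjusted p = 0.819). Over the alternatives the difference at day 1 ran from -0.58 to -0.29.

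The secreted members were under the intron limit on every array. Clec3b, the plasminogen-binding tetranectin, ranged from 1.88 to 3.28, Clec3a of cartilage from 1.83 to 2.51, the bone growth factor gene Clec11a from 2.63 to 3.14 and Clec18a from 2.48 to 3.39. Clec18a read 2.79, 2.48 and 2.54 on intact arrays, 2.55, 2.62 and 2.74 at day 1, 2.62, 2.67 and 2.75 at day 3 and 2.68, 3.18 and 3.39 at day 7. Its means were 2.61 in intact samples and 3.08 at day 7, a difference of 0.48 ± 0.19 (adjusted p = 0.776), and replicate 1 of day 7, at 2.68, overlapped with intact. Fibroblast markers, 13 of 14 measured and 4 above background, were at 4.72 to 5.33 on intact arrays and at 3.20 to 4.36 on all arrays after resection, while Clec3b overlapped with intact at days 1 and 3 and lay below every intact array at day 7 (log2 difference -0.26 ± 0.28).

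Cells that share the sort or read Clec2 ligands were followed as well. Eosinophil markers, all 8 measured and 6 above background, had a mean signal of 5.13 to 5.81 on intact arrays and 4.74 to 5.55 at day 1. It was 4.87 to 5.97 at day 3 and 5.60 to 6.62 at day 7, and each range overlapped the intact one. Single markers moved apart: Ccr3 stood at 2.14 ± 0.48 and Prg2 at -1.55 ± 0.69 from intact at day 3. At day 7 they stood at 2.71 ± 0.48 and -0.27 ± 0.69. Of the 8, 4 were higher and 4 lower at day 3, and 5 higher and 3 lower at day 7. Natural killer and T cell markers, 12 of 13 measured, had 1 gene above background, and their mean was 3.25 to 3.51 on intact arrays and 2.64 to 3.06 after resection. B cell markers, 6 of 7 measured, had 0 genes above background. Type 1 alveolar markers, 5 of 6 measured and 4 above background, were at 5.63 to 6.22 on intact arrays, 4.16 to 5.20 at day 1, 5.37 to 6.15 at day 3 and 4.91 to 5.53 at day 7. What these cells add to the Clec values was not tested.

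The signalling genes downstream of these receptors were measured for 27 of 30 entries, with 18 above background, and 0 passed in limma on any day against intact. At day 1, 20 of 27 were lower, 3 of them at an unadjusted p under 0.05: Malt1, the paracaspase of the Card9 complex, at -0.68 ± 0.22, the Src family kinase gene Fyn at -0.59 ± 0.21 and the NF-kB subunit gene Rel at -0.38 ± 0.17 (5.9% of all probe sets were lower at such a p). At day 3, 18 of 27 were lower, with Fyn at -0.66 ± 0.21, and at day 7, 16 of 27 were higher, with Fyn at -0.81 ± 0.21 (adjusted p = 0.389). Fyn is also transcribed in T cells. The median difference over all 27 measured genes of the list was -0.11, -0.07 and 0.01 on the 3 days. Over all genes it was -0.017, 0.00071 and -0.015, and over all genes above background -0.21, -0.03 and -0.07.

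C-type lectins that do not bear the Clec name were measured for 40 of 41 entries, with 9 above background. Sftpd, the lung collectin surfactant protein D of type 2 alveolar cells, fell at day 7, from a mean of 4.52 to 2.54 (log2 difference -1.98 ± 0.21, adjusted p = 0.00965 in limma), and was under the median intron limit in each group. It was the only gene of this list that passed, and only at day 7. At an unadjusted p under 0.05, 8 of the 40 were lower and 0 higher at day 1 (5.9% and 3.04% of all probe sets), 6 lower and 1 higher at day 3 (2.5% and 1.96% of all) and 3 lower and 1 higher at day 7 (3.74% and 1.95% of all). Among them were Thbd, the endothelial thrombin receptor thrombomodulin, at -1.52 ± 0.48 at day 1, and Cd209a, a DC-SIGN relative of dendritic cells, at -1.37 ± 0.36. Sftpa1, itself one of the type 2 alveolar markers and above background, was also below every intact array on each day. It stood at -2.08 ± 0.69 at day 1, -1.51 ± 0.69 at day 3 and -2.11 ± 0.69 at day 7. The median difference of the list was -0.12, -0.10 and -0.05, against -0.017, 0.00071 and -0.015 over all genes. Type 2 alveolar markers, all 9 measured and 7 above background, had a mean signal of 6.55 to 6.99 on intact arrays and 5.36 to 5.63 at day 7, and the part of these cells in the Sftpd values was not tested.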

How the data were processed

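RNA of Siglec-F sorted alveolar macrophages was measured on 12 Clariom S mouse arrays. The authors deposited 1 log2 signal for each probe set and array. Per the submitters' processing notes it came from RMA in Transcriptome Analysis Console software, whose version is not given in the sources used here. The values fit a log2 scale. Of 28846 probe sets, 6640 controls were left out of the tests, and 22206 were tested, 19572 with 1 gene symbol and 2634 with none.

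In limma 3.58.1 (R 4.3.3), 1 linear model over the 12 arrays with the group as its term was followed by empirical Bayes moderation. P-values are two-sided, adjusted by Benjamini-Hochberg across all 22206, and called under 0.05. An exact permutation test of 3 against 3 arrays cannot go below 0.10. All members are reported, with values per array for members above background and for the 4 of smallest unadjusted p in each comparison with intact. Up to 4 genes of smallest p were eligible for naming from each pathway list. Lists are described by counts, medians and the mean log2 signal per array. The members, lists, alternatives and limits were chosen with earlier results of these data known, including the limit of 0.84 for the separation of exon from intron controls. Alternatives were other scalings, a filter on dim probe sets, averaged probe sets per gene, left-out arrays, only the compared groups, array weights, a replicate block, other moderation and a threshold of 0.1. On simulated data, 54, 50 and 52% of genes changed by 1 log2 unit and 98, 98 and 96% of those changed by 2 were recovered at day 1, day 3 and day 7. The simulation changed 200 probe sets per comparison and drew independent noise of the same spread for every array. It called 188, 185 and 180 probe sets, numbers set largely by the 200 changed by 1 to 4 log2 units. The real arrays gave 0, 1 and 4 calls, and how many genes truly changed there is unknown, so these counts do not measure recovery. With few calls the adjustment is stricter, and the real arrays differed in quality. Recovery on the real arrays may therefore be lower. The number of arrays limits the precision.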

Additional observations from a re-analysis of the deposited data

How the results depend on the processing

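No member passed an adjusted p of 0.05 in limma under other scalings, the filter on dim probe sets, averaged probe sets per gene, only the compared groups, other moderation or any single left-out array (0 in each comparison), and none passed at 0.1. Without the 3 weakly separating arrays 1 of 32 members passed at day 3 (1.13% of all probe sets), 1 at day 7 (1.26% of all) and 1 in the F test (1.27% of all), in each case Clec14a. With array weights 1 passed at day 3 (1.34% of all) and 1 at day 7 (1.81% of all), again Clec14a, and 2 in the F test, Clec12a and Clec14a (1.62% of all). No difference of a member given with its standard error changed sign under any alternative run. The small difference of Clec12b from intact at day 1 did change sign when single arrays were left out. The median difference of the family was small and depended on dim members. Over the 10 members above background it was -0.36 at day 1 and -0.16 at day 7 against intact, 0.21 for day 3 against day 1 and 0.29 for day 7 against day 1. Over all genes above background these medians were -0.21, -0.07, 0.19 and 0.13. The filter takes the highest group mean, so a gene high in a single group passes, as Clec4a1 did through intact samples. This selection can shift the medians of both sets. For day 7 against day 1 the median of all 32 members was 0.08 on all arrays and -0.093 without the weakly separating arrays. It was from -0.0089 to 0.17 with single arrays left out. For day 7 against intact, leaving out single arrays gave -0.15 to 0.041.

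No pairing by the replicate numbers of the labels was visible. Deviations from the group means correlated from -0.24 to 0.26 over 18 pairs of same-numbered arrays. Over 36 pairs of differently numbered arrays they correlated from -0.32 to 0.28. With so few arrays in a group this cannot show whether the numbers paired the samples. With the replicate block 0 members passed in each comparison, and the median difference at day 1 stayed at -0.05. No group was large enough for a test of single outlying arrays. Of the 32 members 22 were not above background, where a difference in signal can understate a difference in RNA or be noise. Which of these applies was not tested.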
